A study of Mus musculus with 12 samples.

Results

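The nuclear exosome and its partners, which degrade RNA in the nucleus, were examined for changes in splicing after acute loss of METTL3, the catalytic subunit of the m6A writer. The members were 10 listed genes: the exosome core subunits *Exosc3*, *Exosc7*, *Exosc8* and *Exosc9*, the ribonucleases *Exosc10* and *Dis3*, the adaptor genes *Rbm7*, *Zcchc8* and *Zcchc7*, and the 5′ to 3′ exonuclease *Xrn2*. A splicing cluster, a set of introns that share splice sites, was taken as a member when its tested entry carried one of these gene names. This gave 20 of 7263 tested clusters, with 50 of 20437 introns, in 8 of the 10 genes. *Exosc3* and *Exosc8* had 0 clusters in the tables. A gene is listed only where introns compete for a splice site and their cluster passes the authors' minimum number of reads that span introns. Absence can come from a lack of competing introns or from too few such reads. Which of these applied to *Exosc3* and *Exosc8* was not tested.

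Newly made RNA was labelled with 4-thiouridine (4sU) for 30 min and sequenced in 12 samples of feeder-dependent female mouse embryonic stem cells of a 129S x Cast background. All samples, untreated ones included, carried *Mettl3* with a C-terminal FKBP12(F36V) tag and a doxycycline-inducible *Xist*. The 6 untreated samples (time point 0 h) and the 6 samples treated for 3 h with dTAG-13, which directs the tagged protein to degradation, each came from 2 clones, C3 and H5, with 3 replicates per clone. The percent spliced in (PSI) of an intron is its share of the split reads of its cluster, written as a fraction from 0 to 1, and deltaPSI is the PSI after dTAG-13 minus that in untreated cells. The authors' tables give 1 fitted PSI per intron and condition with both clones pooled, so no value per sample, spread between replicates, or read depth can be given here, and the evidence against replicate variation is the p-value of the authors' likelihood-ratio test for each cluster.

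The exosome is a ring of subunits without catalytic activity, capped on one side by RNA-binding subunits such as EXOSC3, through which RNA is fed to the 3′ to 5′ ribonucleases EXOSC10 and DIS3. In the nucleus the helicase MTR4 brings it substrates in company with adaptors. RBM7 and ZCCHC8 form the nuclear exosome targeting (NEXT) complex with MTR4, which delivers promoter upstream transcripts, enhancer RNAs and other short-lived transcripts. ZCCHC7 belongs to the TRAMP complex, in which a poly(A) polymerase adds short tails to the substrates. XRN2 works from the other end and degrades the RNA that RNA polymerase II still makes after cleavage at the poly(A) site.

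The alternative forms were set by splice sites whose sequences are shown first, from the GRCm38 reference, the assembly behind mm10, on the transcribed strand. In the exons below, capitals mark the exon and lower case the 20 bases of intron on either side, which the positions given for the exons leave out. The *Rbm7* exon (chr9:48494283-48494387, minus strand) lies inside intron 1 of the coding transcript and ends at a GC instead of a GT donor. The *Dis3* exon (chr14:99099119-99099186, minus strand) also lies in intron 1, and the *Xrn2* exon (chr2:147026381-147026439, plus strand) is a coding exon that was skipped in a small share of reads.
Rbm7 exon: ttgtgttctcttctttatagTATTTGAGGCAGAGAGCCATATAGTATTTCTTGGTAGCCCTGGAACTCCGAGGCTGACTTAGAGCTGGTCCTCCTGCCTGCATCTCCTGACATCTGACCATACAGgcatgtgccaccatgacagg
Dis3 exon: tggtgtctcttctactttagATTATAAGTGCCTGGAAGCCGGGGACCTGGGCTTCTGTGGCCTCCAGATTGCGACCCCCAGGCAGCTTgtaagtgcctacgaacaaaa
Xrn2 exon: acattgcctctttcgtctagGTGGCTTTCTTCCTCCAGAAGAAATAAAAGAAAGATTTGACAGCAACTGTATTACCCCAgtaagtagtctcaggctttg

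At other clusters a pair of sites lay close together. In the next lines capitals mark the bases between both sites, which the transcript keeps or loses with the choice of site. They are the 3′ sites of *Exosc9* (chr3:36563047-36563137) and *Exosc7* (chr9:123118865-123118919) and the 5′ sites of *Exosc10* (chr4:148572945-148573055) and *Zcchc7* intron 1 (chr4:44756668-44756722), all on the plus strand.
Exosc9 3′ sites: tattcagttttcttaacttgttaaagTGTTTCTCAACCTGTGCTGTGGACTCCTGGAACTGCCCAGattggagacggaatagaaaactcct
Exosc7 3′ sites: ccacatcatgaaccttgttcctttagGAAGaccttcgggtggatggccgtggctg
Exosc10 5′ sites: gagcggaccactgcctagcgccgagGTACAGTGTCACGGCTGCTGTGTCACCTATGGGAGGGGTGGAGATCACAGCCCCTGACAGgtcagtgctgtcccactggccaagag
Zcchc7 intron 1 5′ sites: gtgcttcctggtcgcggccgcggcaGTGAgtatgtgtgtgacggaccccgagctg

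The donor sites below have the first 2 bases of the intron in capitals. They belong to intron 4 of *Rbm7* (chr9:48490828-48490857 and chr9:48490824-48490853, minus strand), where a GC donor lies 4 nt downstream of the GT donor.
Rbm7 main donor: gcaagcagtgGTaggcaggtctctcccgct
Rbm7 GC donor: gcagtggtagGCaggtctctcccgctcccc

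None of the member clusters passed the test after adjustment. In the authors' deposited table, 0 of 20 had a Benjamini-Hochberg adjusted p under 0.05 (background 0.702% of all tested clusters), the lowest adjusted p being 0.439 for *Rbm7*. At an unadjusted p of at most 0.05 the table held 6 member clusters in 5 genes, which is 30% of the member clusters beside a background of 6.84%, and 62.5% of the 8 genes beside 11.2% of all genes with a tested cluster. These 6 were 2 clusters of *Rbm7* and 1 each of *Exosc7*, *Exosc9*, *Zcchc7* and *Xrn2*. The shares of genes are not fully alike, because the members had 20 clusters in 8 genes and the series 7263 in 4273. A gene with more clusters has more chances to reach the threshold. The genes were listed with earlier results of these data known, so the excess is given as a description and was not tested.

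The differences were small. The median over the member clusters of the largest absolute deltaPSI was 0.0275, against 0.0214 over all tested clusters. For the 6 clusters at a p of at most 0.05 it was 0.0316, while the 497 such clusters of the whole series had a median of 0.0699. The largest member value, 0.0703 in *Zcchc7*, was reached or exceeded by 761 clusters, or 10.5% of those tested.

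**Figure D1:**
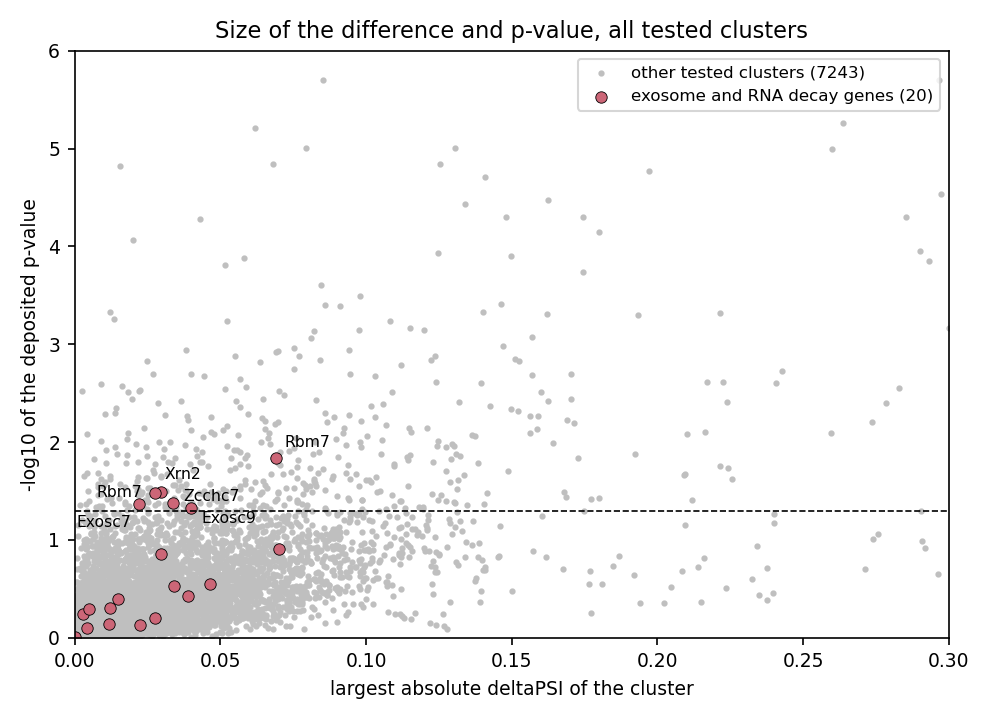
Largest absolute deltaPSI (horizontal) against −log10 of the deposited p-value (vertical) for all tested clusters in grey and the 20 clusters of exosome and RNA decay genes in red, with the dashed line at a p of 0.05 and 42 clusters beyond the axes. The 6 named points above the line lie between 0.0222 and 0.0691 on the horizontal axis, all below 0.0699, the median of every cluster above the line.

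Among the core subunits, *Exosc7* and *Exosc9* each had 1 tested cluster, both with a choice between 3′ splice sites. Both encode subunits of the ring. In *Exosc9* (chr3:36552606-36565727, plus strand) the main intron 9 (chr3:36562165-36563072) had a PSI of 0.951 in untreated and 0.911 in dTAG-13 cells. The site 40 nt downstream (chr3:36562165-36563112) had 0.0487 and 0.0886, a deltaPSI of 0.0399, with p = 0.0473 in the authors' deposited table, which is 0.717 as an adjusted p. The share of the downstream site was thus 1.82 times higher after dTAG-13, though it remained the lesser form in both conditions. The match of this site to the average 3′ site of the annotated introns lay at percentile 1.16 of the 13536 tested 3′ sites, against percentile 21.3 for the upstream site. Its use removes 40 nt from the exon, and read from the start codon of the longest coding transcript the frame then ends after 329 instead of 438 codons. GENCODE vM21 holds this junction only in a short protein-coding transcript, as the last of its 4 introns, so no junction follows the stop codon there.

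In *Exosc7* (chr9:123113215-123136129, plus strand) the acceptors of intron 1 are 4 nt apart. The upstream one (chr9:123113323-123118890) had a PSI of 0.981 without and 0.959 with dTAG-13, and the downstream one (chr9:123113323-123118894) had 0.0189 and 0.041, with p = 0.0434 in the authors' deposited table (adjusted p = 0.695). As in *Exosc9*, the downstream acceptor was the weaker match, at percentile 6.97 against 40.2. Its use shifts the frame, which ends after 35 of 291 codons. GENCODE vM21 holds this junction in a processed transcript without a coding frame.

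The ribonucleases had more clusters and none at a p of at most 0.05. *Exosc10* (chr4:148558429-148582401, plus strand), the nuclear ribonuclease of the RNase D family, had 3. In 2 of them a downstream donor that GENCODE vM21 places only in transcripts subject to nonsense-mediated decay (NMD) competed with the main one, and their values pointed in opposite directions. At intron 6 the main donor (chr4:148563136-148563843) had a PSI of 0.937 in untreated and 0.971 in dTAG-13 cells, and the downstream donor (chr4:148563697-148563843) had 0.0628 and 0.0286, with p = 0.298 in the authors' deposited table. At intron 15 the main donor (chr4:148572970-148573110) had 0.928 and 0.899, and the donor 60 nt downstream (chr4:148573030-148573110) had 0.0718 and 0.101, with p = 0.139 in the authors' deposited table. Although 60 is a multiple of 3, the added sequence holds an in-frame stop codon, and the frame ends after 618 of 887 codons. The downstream donor was here the better match to the average 5′ site, at percentile 61.5 against 9.97 for the main donor. The remaining cluster includes or skips a coding exon of 75 nt (chr4:148576150-148576224), whose inclusion, the mean PSI of its flanking introns over that mean plus the PSI of the skipping intron, was 0.968 without and 0.976 with dTAG-13. Its leading intron (chr4:148575905-148576149) had a PSI of 0.618 and 0.629, and the skipping intron (chr4:148575905-148578417) had 0.0163 and 0.0123, with p = 0.728 in the authors' deposited table.

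*Dis3* (chr14:99075206-99099770, minus strand), which encodes the processive ribonuclease at the bottom of the ring, had 5 tested clusters, the most of any member, with p-values from 0.283 to 0.787 in the authors' deposited table. The lowest p belonged to the 68-nt exon in intron 1 printed above, which GENCODE vM21 joins to the first exon only in an NMD transcript. The intron that skips it (chr14:99098841-99099445) had a PSI of 0.689 in untreated and 0.736 in dTAG-13 cells. The introns on its upstream and downstream sides had 0.115 and 0.196 in untreated cells, and 0.0951 and 0.169 in treated ones. Its inclusion was 0.184 and 0.152. With this exon the frame ends after 116 of 958 codons.

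The other *Dis3* clusters had lesser forms at a PSI of 0.0129 to 0.0393 in untreated cells. Skipping of the 194-nt exon between introns 2 and 3 (chr14:99096831-99098682) had 0.0315 and 0.0391, beside 0.533 and 0.518 for intron 2 (chr14:99097779-99098682), with p = 0.402 in the authors' deposited table. Skipping of the 85-nt exon between introns 12 and 13 (chr14:99084155-99086046) had 0.0234 and 0.0262, with p = 0.633 in the authors' deposited table. Its flanking introns were used unequally, since intron 13 (chr14:99084155-99085873, 1719 nt long) had 0.596 and 0.568 and intron 12 (chr14:99085959-99086046, 88 nt long) had 0.381 and 0.405. At intron 4 the main acceptor (chr14:99095341-99096756) had 0.987 and 0.99 and an unannotated one 91 nt further downstream (chr14:99095250-99096756) had 0.0129 and 0.00993. At intron 11 the main acceptor (chr14:99086112-99087388) had 0.961 and 0.957 and one 115 nt upstream of it (chr14:99086227-99087388) had 0.0393 and 0.0434. The latter intron is in RefSeq but not in GENCODE vM21. Each of these lesser forms breaks the frame, which ends after 129 to 566 of 958 codons.

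**Figure D2:**
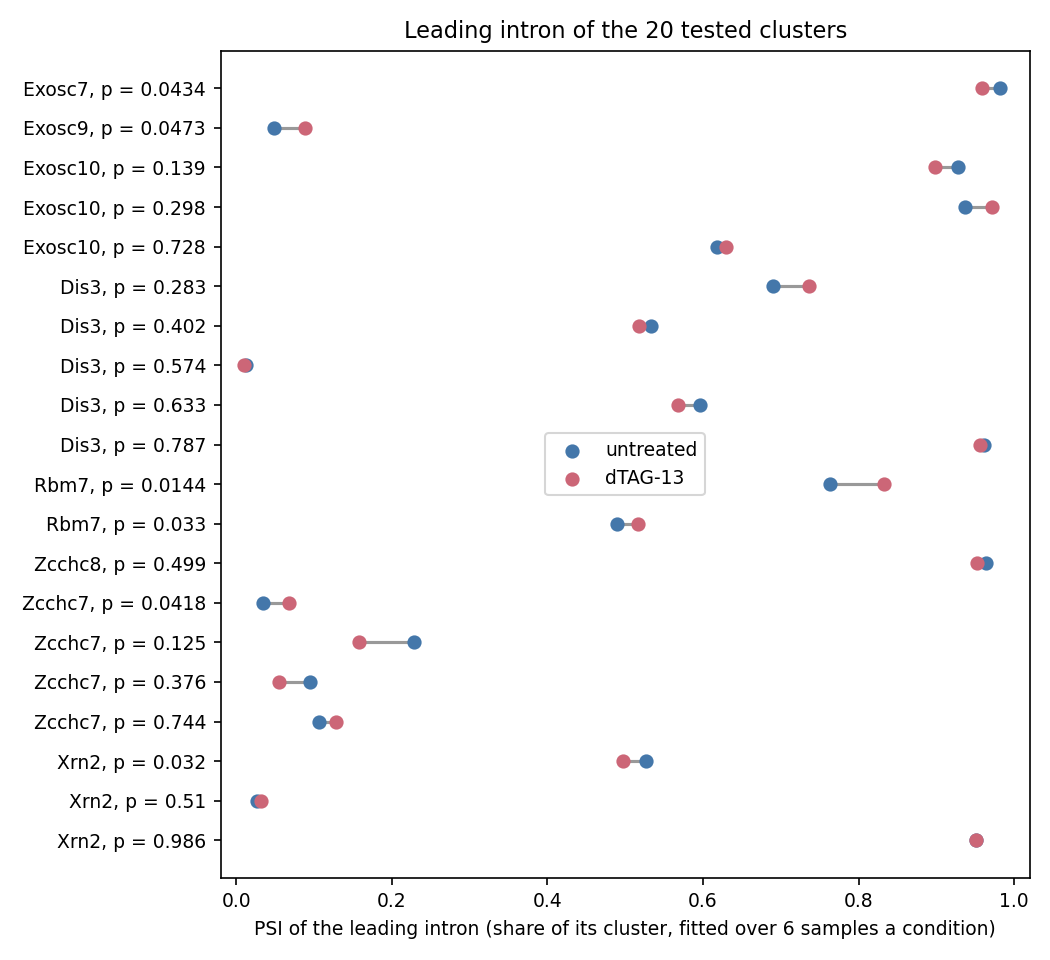
PSI (horizontal) of the intron with the largest absolute deltaPSI in each of the 20 tested clusters, ordered by gene and then by the deposited p-value, with untreated cells in blue and dTAG-13 cells in red. Each point is a single fitted value over 6 samples and carries no error bar, and the pairs lie at most 0.0703 apart.

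*Rbm7* (chr9:48488701-48495299, minus strand), the RNA-binding subunit of NEXT, had the lowest p of all member clusters and both of its tested clusters at a p of at most 0.05. In the first, intron 1 is either removed whole or in 2 steps around the 105-nt exon printed above. Removal of the whole intron (chr9:48494182-48495154), which gives the coding form, had a PSI of 0.763 in untreated and 0.832 in dTAG-13 cells. The introns upstream (chr9:48494388-48495154) and downstream (chr9:48494182-48494282) of the exon had 0.109 and 0.128 in untreated cells, and 0.0723 and 0.0956 in treated ones. Both sides of the exon were thus lower, and its inclusion was 0.134 in untreated and 0.0917 in dTAG-13 cells, with p = 0.0144 in the authors' deposited table (adjusted p = 0.439). By p the cluster ranked 236 of 7263.

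GENCODE vM21 holds the *Rbm7* exon only in an NMD transcript. Its 105 nt are a multiple of 3, but the reading frame from exon 1 meets a TAG stop codon at base 22 of the exon and ends after 39 of 265 codons, 423 nt before the last exon junction. The donor at its end starts with GC, as only 0.944% of all tested introns do, and its match to the average 5′ site lay at percentile 5.88 of 13986 tested 5′ sites. The donor of exon 1, which serves both forms, lay at percentile 96.4. Of the 2411 clusters of the series with a single cassette exon, 469 had an absolute difference of inclusion as large as that of *Rbm7* (0.0428) or larger, and the median was 0.0161.

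The second *Rbm7* cluster covers introns 3 and 4 and had p = 0.033 in the authors' deposited table (adjusted p = 0.638). Intron 3 (chr9:48490939-48493406) had a PSI of 0.489 in untreated and 0.517 in dTAG-13 cells, and intron 4 from its main donor (chr9:48489989-48490847) had 0.446 and 0.443. The remaining introns are in RefSeq but not in GENCODE vM21, and both were lower after dTAG-13. The intron from the GC donor (chr9:48489989-48490843) had 0.0402 and 0.0279, and the one that skips the exon (chr9:48489989-48493406) had 0.0246 and 0.0119. The GC donor adds 4 nt and the skip removes 91 nt, so both shift the frame, which then ends in the last exon, after 182 and 116 codons. In both clusters the annotated coding junctions together took a larger share after dTAG-13 and every lesser junction a smaller one. The 2 member introns with GC donors were both from *Rbm7* and both lower after dTAG-13, beside 104 of 193 such introns (53.9%) in the whole series.

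**Figure D3:**
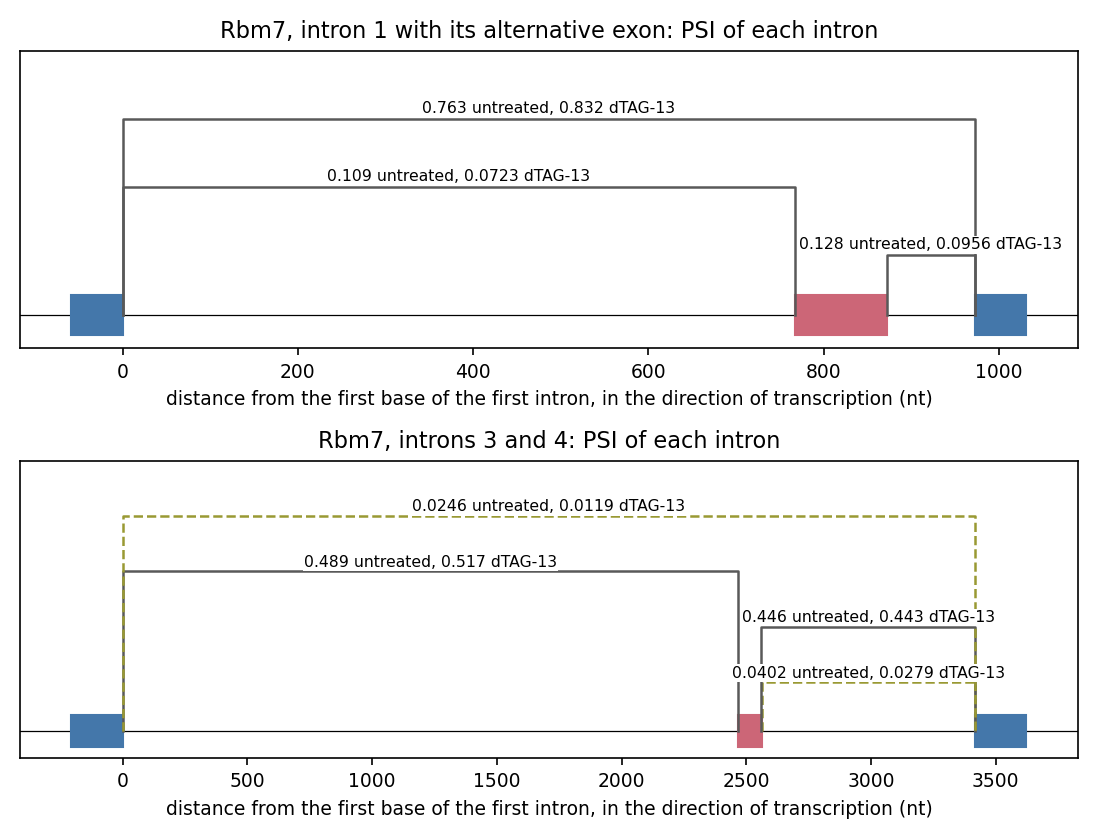
Introns of *Rbm7* in the upper cluster (intron 1 with its alternative exon in red) and the lower cluster (introns 3 and 4 with the exon between them in red), drawn to scale by distance in nt in the direction of transcription, with flanking exons in blue drawn at an arbitrary width and introns absent from GENCODE vM21 dashed. Bracket height has no meaning, and the PSI beside each bracket shows the whole-intron form of the upper cluster at 0.763 and 0.832.

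*Zcchc8* (chr5:123698294-123721100, minus strand), the scaffold of NEXT, had 1 tested cluster. Its coding intron 5 (chr5:123709486-123714065) had a PSI of 0.964 in untreated and 0.952 in dTAG-13 cells, and a downstream donor known only from an NMD transcript (chr5:123709486-123710686) had 0.0356 and 0.0478. The deposited p of 0.499 in the authors' table gave no evidence of a difference, and the deltaPSI of 0.0121 lay below the median size of all tested clusters.

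*Zcchc7* (chr4:44755877-44932215, plus strand), the zinc-knuckle subunit of TRAMP, had 4 tested clusters, of which the one at the last intron had p = 0.0418 in the authors' deposited table, which is 0.687 as an adjusted p. The main donor of intron 8 had a PSI of 0.966 in untreated and 0.932 in dTAG-13 cells. The donor 410 nt downstream, which GENCODE vM21 holds only in an NMD transcript, had 0.0338 and 0.0676, a ratio of 2.00. With the longer exon the frame ends after 431 of 541 codons.

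The largest deltaPSI of any member was at *Zcchc7* intron 1, ahead of the start codon, where donors 4 nt apart compete. The upstream one (chr4:44756693-44761849) had 0.772 in untreated and 0.842 in dTAG-13 cells, and the downstream one (chr4:44756697-44761849) had 0.228 and 0.158. With p = 0.125 in the authors' deposited table this difference of 0.0703 did not pass even the unadjusted threshold. At intron 3 the leading intron had 0.106 and 0.128 and its main competitor 0.802 and 0.789, with p = 0.744 in the authors' deposited table. The remaining intron there differed the other way, with 0.0922 and 0.0823. It and the leading intron flank a 159-nt exon, and both are in neither GENCODE vM21 nor RefSeq. At intron 6 the main donor (chr4:44908487-44925974) had 0.782 and 0.788 and an unannotated donor nearer the acceptor (chr4:44924268-44925974) had 0.0944 and 0.0555, with p = 0.376 in the authors' deposited table. The third intron of that cluster, from a donor in RefSeq but not in GENCODE vM21 (chr4:44916313-44925974), had 0.124 and 0.157.

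*Xrn2* (chr2:147012996-147078000, plus strand) had 3 tested clusters, and the one around its 59-nt exon between introns 4 and 5 had p = 0.032 in the authors' deposited table, which is 0.633 as an adjusted p. The intron that skips the exon (chr2:147025307-147026514), which is in RefSeq but not in GENCODE vM21, had a PSI of 0.00402 in untreated and 0.0166 in dTAG-13 cells. Intron 4 (chr2:147025307-147026380) had 0.469 and 0.486, and intron 5 (chr2:147026440-147026514) had 0.526 and 0.497. Inclusion of the exon was 0.992 and 0.967. The skip was 4.12 times higher after dTAG-13 but stayed a rare form, and without the exon the frame ends after 144 of 951 codons. How many reads span the skip is not given, so the precision of so low a share is unknown.

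The other *Xrn2* clusters showed next to no difference. At intron 8 the main acceptor (chr2:147027646-147028092) had 0.951 and 0.95 and the acceptor 104 nt downstream (chr2:147027646-147028196) had 0.0494 and 0.0496, with p = 0.986 in the authors' deposited table. The intron to the downstream acceptor is in RefSeq but not in GENCODE vM21. At intron 13 the main acceptor (chr2:147029977-147034853) had 0.973 and 0.968, with p = 0.51 in the authors' deposited table. An acceptor 24 nt upstream, whose intron (chr2:147029977-147034829) is in RefSeq but not in GENCODE vM21, had 0.0266 and 0.0315.

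Most lesser forms of these genes that could be read in frame introduced an early stop codon, but the share in other genes was not computed. Of 18 forms other than the main coding one that could be read from the start codon of the longest coding transcript, 15 in 7 genes had a stop codon over 50 nt before the last exon junction, the position that commonly exposes a transcript to NMD. The distance was taken on the exons of the longest coding transcript, which for *Exosc9* differs from the annotated transcript with that junction. In 10 of the 15 the change in length was not a multiple of 3. Of these 15 forms, 11 had a higher PSI after dTAG-13 and 4 a lower one (*Rbm7*, *Exosc10* intron 6, and 2 of *Dis3*), where the form at *Zcchc7* intron 3 counts as higher by the mean of 2 introns that differed in opposite directions. In the clusters at a p of at most 0.05 there were 5 such forms, of which 4 were higher (*Exosc7*, *Exosc9*, *Zcchc7* and *Xrn2*) and 1 lower (*Rbm7*). Some of the 11 higher forms differed by next to nothing, as at *Xrn2* intron 8 (0.0494 and 0.0496, with p = 0.986 in the authors' deposited table). The direction of early-stop forms in other genes was not computed, so this tally has no background of the same kind. In a different unit, the lesser intron of the 3455 clusters with 2 introns was higher after dTAG-13 in 51.2%, and among the 11 such member clusters it was higher in 8. For cassette exons, inclusion was lower after dTAG-13 in 57.1% of the 2411 clusters of the series and in 5 of the 7 member clusters. Of the 50 member introns 9, or 18%, are annotated only in NMD transcripts, beside 3.88% of all introns. Of these 9 introns 5 were higher and 4 lower, and of all 793 such introns 54.5% were higher.

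**Figure D4:**
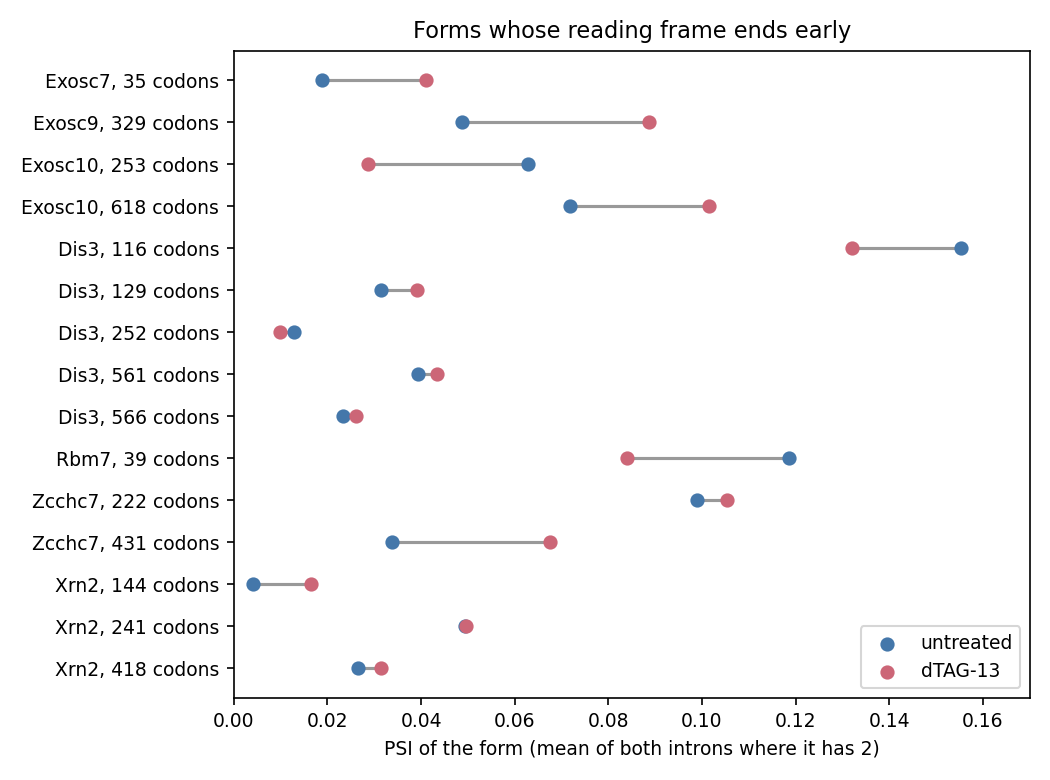
PSI (horizontal) in untreated (blue) and dTAG-13 cells (red) of the 15 forms whose reading frame ends over 50 nt before the last exon junction, labelled by gene and by the number of codons up to the stop. The points carry no error bar, and 11 forms lie further right after dTAG-13 while 4 lie further left.

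The pentamer GGACT, a common form of the m6A consensus, was searched on the transcribed strand within 100 nt of each splice site that differs between the introns of a cluster. It was present at 8 of 58 member sites (13.8%), beside 17.5% of all 23683 such sites. Among the clusters at a p of at most 0.05 it was present at 4 of 19 sites, which are the acceptors of *Exosc9* and *Exosc7*, beside 17.4% of the sites of all clusters at that threshold. In *Exosc9* it starts at base 21 of the 40 nt between both acceptors, within the stretch printed in capitals above. In *Exosc7* it starts 33 nt after the last base of the intron that ends at the main acceptor. Measured m6A sites were not analysed here, and a match of letters is not a methylated site.

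Further genes of RNA decay gave a share near the background. Of 67 other listed genes, 42 had a tested cluster, and 7 of their 96 clusters (7.29%) had a p of at most 0.05, with 1 under an adjusted p of 0.05. Their median size was 0.0151. Of the other exosome core genes only *Exosc2* was tested, and of the cofactors only *Mphosph6*, with 0 of 3 clusters at that threshold in all. The cap-binding genes with ARS2 (*Ncbp1*, *Ncbp3* and *Srrt*) had 0 of 8.

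Of 18 clusters in 8 genes of MTR4 and the further adaptors, 1 had a p of at most 0.05, a cluster named for both *Pabpn1*, which encodes the nuclear poly(A)-binding protein, and the overlapping *Gm20521*. Its leading intron had 0.0172 in untreated and 0.00647 in dTAG-13 cells, with p = 0.0163 in the authors' deposited table. Among 13 clusters of genes around 5′ to 3′ decay and termination, 1 in *Pcf11*, a termination factor that acts before XRN2, stood at p = 0.00072 in the authors' deposited table (adjusted p = 0.078). Its longer intron (chr7:92658867-92659797) had a PSI of 0.467 in untreated and 0.587 in dTAG-13 cells, and the deltaPSI of 0.12 was larger than that of any exosome member.

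In the cytoplasmic machinery, 2 of 5 clusters of the SKI-linked genes had a p of at most 0.05. For *Hbs1l*, which encodes a ribosome rescue factor and, by a splice variant, a bridge between SKI and the exosome, the leading intron had 0.0254 and 0.09, with p = 0.00362 in the authors' deposited table (adjusted p = 0.221). For *Wdr61*, which encodes the SKI8 subunit, it had 0.0388 and 0.0708, with p = 0.0454 in the authors' deposited table. Of 49 clusters of deadenylation and decapping genes, 3 had a p of at most 0.05. The helicase gene *Ddx6* held the only cluster that passed the adjusted test (adjusted p = 0.00304 in the authors' deposited table), where the leading of 10 introns fell from 0.259 to 0.18. The leading introns of the deadenylase gene *Cnot6* (0.174 and 0.277) and of *Cnot4* (0.291 and 0.428), a ubiquitin ligase tied to the same complex, had adjusted p-values of 0.274 and 0.347.

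The splicing tables used here hold no expression levels, so the cell type was not checked. What can be given is which marker genes had a tested cluster. This was so for 9 of 14 embryonic stem cell markers, among them *Nanog*, *Esrrb* and *Zfp42*, and for 2 of 10 markers of the feeder fibroblasts (*Fn1* and *Sparc*). Among these markers the leading intron of a *Sall4* cluster rose from 0.0299 to 0.0982 (adjusted p = 0.000313 in the authors' deposited table), and that of an *Fn1* cluster had 0.00827 and 0.0187 (adjusted p = 0.582). A marker without a competing intron, or with too few reads that span introns, cannot appear, so these counts do not measure expression. The part of feeder RNA in the values above was not tested.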

How the data were processed

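Nascent 4sU-labelled RNA of 12 samples, 6 untreated and 6 with dTAG-13, was measured by the authors, who mapped reads to mm10 with STAR 2.5.2b, kept uniquely mapped reads and compared intron use with LeafCutter, joining both clones. Per cluster they deposited a log-likelihood ratio score, a p-value and an adjusted p-value, and per intron the fitted PSI of either condition as a fraction, deposited without counts. Columns of effects and differences computed by the authors were not used. The test sets the difference between conditions against the variation among these samples. The authors state no term for the clone, so as far as stated the matching of samples within a clone was not used. Read depth per sample is unknown from these tables.

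From these values deltaPSI was computed, and p-values were adjusted by Benjamini-Hochberg over all 7263 tested clusters. The deposited positions are the exon bases beside each intron and were moved inward by 1 base, after which introns ended in GT-AG, GC-AG or AT-AC in 99.9% of cases. Annotation was GENCODE vM21 and RefSeq on GRCm38. Splice sites were scored by a log2 position weight matrix of annotated sites (9 bases for 5′, 23 for 3′ sites, with 3 exonic bases each). Reading frames follow the longest coding transcript, for exons changed by at most 1000 nt, and are predictions.

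All 10 listed genes are named. Every intron is given for clusters at a p of at most 0.05, and for the rest at least the intron with the largest absolute deltaPSI and its main competitor. Other listed genes are named where a cluster reached that threshold. The members and lists were chosen with earlier results of these data known. Alternatives were other adjustments and thresholds, filters on gene names and low PSI, and other measures of size. The steps from score to adjusted p, and the largest absolute deltaPSI, were tested on simulated data. The simulated scores came from the same chi-square family that gives p. Reading frames, splice-site scores, exon inclusion and the motif search were not tested in this way. Python 3.11.15, pandas 2.3.3, scipy 1.17.1, statsmodels 0.14.6 and pysam 0.24.0 were used. Reads and m6A maps were not analysed here, and some sequences of *Zcchc7* are not reported here.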

Additional observations from a re-analysis of the deposited data

How the results depend on the processing

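The count of 0 member clusters with an adjusted p under 0.05 was also 0 at an adjusted p under 0.2, with clusters of a single gene name only, and with clusters that have at least 2 introns at a PSI of 0.05 in either condition. Benjamini-Yekutieli and Bonferroni adjustment are stricter, so their counts of 0 carry no information on stability. The count was 6 at an unadjusted p of at most 0.05. The count of 6 was also 6 when p was recomputed from the score by a chi-square distribution and with single gene names. Neither says anything about stability. The recomputed p differed from the deposited one by at most 7.63e-15, and every member cluster already carried a single gene name. With the filter on PSI the count was 5 of 14, which left out *Exosc7*. The lesser introns of *Exosc9* (0.0487 untreated, 0.0886 with dTAG-13) and *Zcchc7* (0.0338 and 0.0676) passed this filter only by their PSI after dTAG-13. *Xrn2* passed by the introns beside its exon, while the skip had 0.00402 and 0.0166. The filter thus cannot show whether the count depends on low shares. The median size of 0.0275 was 0.0275 as the sum of absolute deltaPSI divided by 2. With 2 or 3 introns, as in all but 1 member cluster, these measures are equal by arithmetic, so this says nothing about stability. On the scale of logit PSI, a different unit, the median size was 0.295, beside 0.214 over all tested clusters. For the leading introns the logit scale cannot change a direction, and in the 11 clusters of 2 introns the share of the pair equals the PSI, so those alternatives say nothing about stability. In the other 9 clusters the share of the pair had the direction of the PSI. No paired analysis was possible because the tables hold no value per sample, and for the same reason no replicate or clone could be left out. How far read depth limits the low shares is unknown.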
